A study of Homo sapiens with 12 samples.

Results

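Messenger RNA of 37 genes that act in S phase, the part of the cell cycle in which DNA is copied, was followed in LNCaP cells given miR-135b. The MCM and GINS subunits of the replicative helicase were kept apart from them. The genes were taken by name, and every probe that the platform annotation gives to one of them was used if its detection p was under 0.01 on at least 2 of the 12 arrays. This kept 54 of their 58 probes and 36 of the 37 genes, out of 11238 genes tested in all. The gene left out was CCNE2, the gene of the second E-type cyclin, whose single probe was detected on 0 arrays. Of the 36 measured genes, 22 had 1 kept probe and 14 had several, and the probe of highest mean stands for its gene unless stated.

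LNCaP is an established human prostate carcinoma line grown from a lymph node metastasis. The cells carried a transfected Ambion pre-miR precursor at 20 nM, either of miR-135b or, in the control cells, the scrambled pre-miR negative control #1, and RNA was taken 12, 24 or 36 h later. The 6 groups were therefore miR-135b at 12, 24 and 36 h and control at 12, 24 and 36 h, with 2 arrays each, which the design text calls biological repeats. All groups share the transfection itself, and untransfected cells are not analysed here. The title of the series asks how an overexpression of miR-135b alters the expression profile.

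Between 15967 and 17856 of 47323 probes were detected per array, the r of the 2 repeats of a group was 0.979 to 0.989, and their median SD was 0.131 to 0.177 on the log2 scale. Of the luminal prostate markers 9 of 10 had a probe in the annotation, and all 9 were detected on all 12 arrays, KLK3 and HOXB13 among them. Of 13 markers of basal cells, leukocytes, fibroblasts and endothelium with a probe, 10 were detected on 0 arrays. The exceptions were CD14 on 2 arrays and COL1A1 and VWF on 12 each, and their part in the results was not tested. Having 2 arrays a group limits how precise any value below can be.

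As background, replication origins are licensed before S phase by ORC, CDC6 and CDT1, which load the helicase onto DNA, and are fired by kinases that cyclin E and CDC25A help to switch on. Polymerases then copy the strands, held to the DNA by the ring-shaped clamp PCNA and its loader RFC. Many of these genes are switched on together ahead of S phase by transcription factors of the E2F family, so their messenger RNA is widely read as a sign of cells that enter the cycle. A microRNA pairs through its seed, the bases near its 5′ end, with target messenger RNA and lowers it.

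The sequence of the transfected product is shown because it defines the treatment. In RefSeq on GRCh38.p14, the mature microRNA lies at chr1:205448361-205448383 on the minus strand, with the seed, bases 2 to 8, in capitals.
hsa-miR-135b-5p: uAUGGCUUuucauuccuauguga

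Promoter windows, 250 bases before to 50 after the start, were taken from RefSeq on the same build to see what the genes share besides function. They were searched on both strands for the letters TTCCCGC and for the letters TTGGCGC, and likewise for the letters TTCGCGC and for the letters TTGCCGC, which are spellings of the E2F motif that may overlap each other on opposite strands. Of the 33 measured genes with a window, 27 held a match, or 81.8%, against 25.1% of 9097 tested genes with a window, in each case counting any window of a gene. Of single windows, 32 of the 45 of these genes held a match, or 71.1%, against 13% of all 35116 windows. A match is a description of the letters and not a site of binding. The windows are printed for those of the 5 genes that fell in the mean of 3 times whose window held a match, with the matches in capitals, since these are the genes the results turn on. DTL (chr1:212035498-212035797, plus strand) held matches that began at -108 and -7 from the start, RFC4 (chr3:186806433-186806732, minus strand) at -10 and 22, and POLE2 (chr14:49688165-49688464, minus strand) at -5. The windows of MCM10 and CCNE1 held none of these letters.
DTL: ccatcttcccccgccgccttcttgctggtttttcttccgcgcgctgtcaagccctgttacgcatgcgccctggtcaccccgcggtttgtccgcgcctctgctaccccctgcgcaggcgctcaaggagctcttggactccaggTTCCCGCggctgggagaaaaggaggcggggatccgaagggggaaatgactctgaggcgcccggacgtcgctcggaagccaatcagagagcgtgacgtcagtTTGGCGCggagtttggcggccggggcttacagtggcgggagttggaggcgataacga
RFC4: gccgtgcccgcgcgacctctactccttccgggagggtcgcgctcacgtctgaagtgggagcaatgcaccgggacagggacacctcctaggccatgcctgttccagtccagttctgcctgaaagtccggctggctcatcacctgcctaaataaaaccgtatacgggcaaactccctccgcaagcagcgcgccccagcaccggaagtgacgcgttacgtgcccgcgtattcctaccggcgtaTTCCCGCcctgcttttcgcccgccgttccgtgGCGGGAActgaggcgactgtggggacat
POLE2: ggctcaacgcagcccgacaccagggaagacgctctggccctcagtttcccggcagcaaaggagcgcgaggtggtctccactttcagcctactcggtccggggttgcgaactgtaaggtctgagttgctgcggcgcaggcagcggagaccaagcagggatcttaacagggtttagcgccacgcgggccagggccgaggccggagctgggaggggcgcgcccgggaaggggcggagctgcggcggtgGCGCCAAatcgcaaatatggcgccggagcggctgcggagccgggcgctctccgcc

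Over the mean of the 3 times, 5 of the 36 genes fell in miR-135b cells and 0 rose (limma, adjusted p below 0.05 over all genes tested), while 2.81% of all genes fell and 1.97% rose. At an unadjusted p below 0.05, 21 of the 36 were lower, against 9.02% of all genes, and 0 were higher. The 5 were the ubiquitin ligase adaptor gene DTL, the clamp loader gene RFC4, the cyclin gene CCNE1, the firing factor gene MCM10 and the polymerase subunit gene POLE2, and their levels in miR-135b cells were 1.65, 1.33, 1.31, 1.37 and 1.28 times lower than in control cells. The effect was below 0 in 34 of the 36 genes, where 48.9% of all genes were below 0. The 2 exceptions were the loader gene RFC2 at 0.00 ± 0.14 and the polymerase delta subunit gene POLD3 at 0.12 ± 0.11 (log2 fold change of miR-135b over control ± SE of the fit, as throughout). RFC2 took values from -0.04 to 0.04 over the other ways of processing and so has no settled direction. The median of the 36 effects was -0.24, beside 0.00 over all genes, and it was -0.20 between the arrays of repeat 1 and -0.25 between those of repeat 2. In such bulk RNA, fewer cells that express a gene and less of its RNA per cell cannot be told apart.

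**Figure D1:**
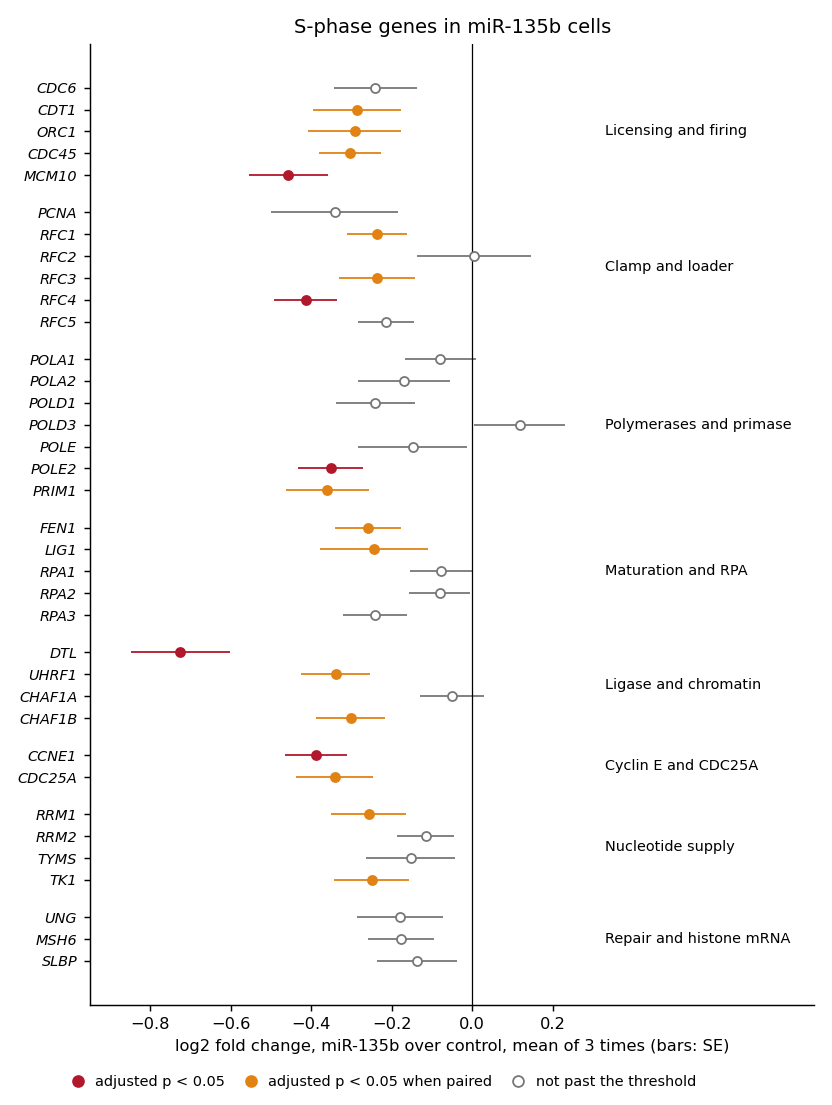
Effect of miR-135b on each of the 36 measured genes in the mean of 3 times, as log2 fold change of miR-135b over control on the horizontal axis, with genes grouped by role and bars of 1 standard error (12 arrays). Red points passed, orange points passed when paired and not unpaired, and open points passed neither way. DTL lies furthest from 0 at -0.73, and RFC2 and POLD3 are the 2 genes at or above 0.

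Same-numbered arrays of a time deviated together, so a fit with the repeats paired within each time was also made. In it, 18 of the 36 genes fell and 0 rose, while 6.52% of all genes fell and 5.09% rose. In the paired fit over every kept probe, counting a gene if any of its probes passed, 9 of the 36 fell, against 3.64% of all kept probes. That share counts probes and not genes, so it is not on the same scale. Without single arrays the count of 5 dropped to 1 without repeat 2 of miR-135b at 12 h, and to 2 without repeat 2 of miR-135b at 24 h, repeat 1 of the control at 12 h, repeat 1 of the control at 24 h or repeat 1 of the control at 36 h. It was also lower without each other array. Such counts can hold genes outside the 5. These were CDC25A without repeat 1 of miR-135b at 12 h and CHAF1B without repeat 2 of miR-135b at 36 h. DTL kept its call in 12 of these 12 fits, RFC4 in 10, CCNE1 in 6, MCM10 in 3 and POLE2 in 2. The adjusted p ranged over these fits from 0.0118 to 0.0318 for DTL, 0.0152 to 0.0524 for RFC4, 0.0152 to 0.0668 for CCNE1, 0.022 to 0.0855 for MCM10 and 0.0475 to 0.115 for POLE2.

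The genes of origin licensing and firing are ORC1, the largest subunit of the origin recognition complex, CDC6 and CDT1, which load the helicase with it, CDC45, a part of the active helicase, and MCM10, which is needed for the helicase to start. Of these 5 genes 1 fell in the mean of 3 times, MCM10, and 4 fell with the pairing, with a median of -0.29. Beside this and each later group, 2.81% of all genes fell, or 6.52% with the pairing. Values given for single arrays are log2 signal, with repeat 1 before repeat 2. At 12 h MCM10 read 9.79 and 9.70 in miR-135b cells, against 9.81 and 9.86 in control cells. At 24 h MCM10 read 9.09 and 8.73 in miR-135b cells, against 9.45 and 9.54 in control cells. At 36 h MCM10 read 8.74 and 8.40 in miR-135b cells, against 9.39 and 9.13 in control cells. The groups did not overlap at any time, and the gap between them was narrow at 12 h. MCM10 was lower by a log2 fold change of -0.46 ± 0.10 (adjusted p = 0.0277, and 0.0131 with the pairing), and its other kept probe gave -0.33.

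CDC45 read 11.30 and 11.07 in miR-135b cells and 11.08 and 11.005 in control cells at 12 h, 10.90 and 10.69 in miR-135b cells and 11.21 and 11.27 in control cells at 24 h, and 10.51 and 10.39 in miR-135b cells and 11.06 and 11.04 in control cells at 36 h. The groups overlapped at 12 h, with the higher mean in miR-135b cells, and both miR-135b arrays lay below both control arrays at 24 and 36 h. Its effect in the mean was -0.30 ± 0.08 (adjusted p = 0.055, and 0.0296 with the pairing). Without the pairing it passed in 4 other settings, such as without background correction (adjusted p = 0.0216).

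CDT1 read 9.70 and 9.39 in miR-135b cells and 9.25 and 9.29 in control cells at 12 h, 9.06 and 8.90 in miR-135b cells and 9.55 and 9.18 in control cells at 24 h, and 8.82 and 8.42 in miR-135b cells and 9.48 and 9.26 in control cells at 36 h. The order of the groups thus differed between times, with miR-135b above control at 12 h and below it at 24 and 36 h, without overlap. The effects at the 3 times were 0.28, -0.38 and -0.75, and the mean was -0.29 ± 0.11 (adjusted p = 0.195). The rise at 12 h had an SE of 0.19 and did not pass (unadjusted p in limma of 0.172). With the pairing its adjusted p in the mean rounded to 0.05 and lay just under the threshold.

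ORC1 read 7.83 and 7.60 in miR-135b cells and 8.24 and 7.66 in control cells at 12 h, 7.45 and 7.33 in miR-135b cells and 7.81 and 7.53 in control cells at 24 h, and 6.85 and 7.07 in miR-135b cells and 7.26 and 7.39 in control cells at 36 h. The miR-135b array lay below the control array of the same time and repeat in 6 of 6 pairs, with overlap of the groups at 12 h. ORC1 passed with the pairing (-0.29 ± 0.12, adjusted p = 0.213, and 0.0408 with the pairing). CDC6, at -0.24 ± 0.10, was also below control in 6 of 6 pairs and passed neither way (adjusted p = 0.258, and 0.0804 with the pairing). Both were smaller without background correction, ORC1 at -0.19 and CDC6 at -0.10, and CDC6 was at -0.11 in the authors' values.

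PCNA is the sliding clamp, RFC1 the large subunit of the loader that opens it and RFC2 to RFC5 the small subunits. Of these 6 genes 1 fell in the mean, RFC4, and 3 fell with the pairing, with a median of -0.24. At 12 h RFC4 read 11.61 and 11.52 in miR-135b cells, against 11.78 and 11.68 in control cells. At 24 h RFC4 read 11.28 and 10.97 in miR-135b cells, against 11.59 and 11.61 in control cells. At 36 h RFC4 read 10.85 and 10.87 in miR-135b cells, against 11.41 and 11.52 in control cells. Both miR-135b arrays were below both control arrays at each time, and the effect was -0.41 ± 0.08 (adjusted p = 0.0146). A second RFC4 probe gave -0.39 ± 0.07 and passed in the fit over every kept probe (adjusted p = 0.0233). The calls of RFC4 without single arrays were lost without repeat 2 of miR-135b at 12 h and without repeat 2 of the control at 36 h.

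The RFC3 probe of highest mean read 10.39 and 10.46 in miR-135b cells and 10.26 and 10.30 in control cells at 12 h, 10.30 and 9.92 in miR-135b cells and 10.55 and 10.31 in control cells at 24 h, and 10.001 and 9.72 in miR-135b cells and 10.45 and 10.36 in control cells at 36 h. Like CDT1 it was above control in value at 12 h and below it later, without overlap. Its 12 h effect of 0.15 ± 0.16 did not pass (unadjusted p in limma of 0.388). In the mean RFC3 passed with the pairing (-0.24 ± 0.09, adjusted p = 0.22, and 0.0493 with the pairing). The 3 kept probes of RFC3 disagreed in size, and at 12 and 24 h also in sign. Another probe detected on 12 arrays gave -0.49 ± 0.08 and passed in the fit over every kept probe (adjusted p = 0.0125), and the remaining probe gave -0.09 ± 0.08. In that order, these other probes gave -0.19 and 0.01 at 12 h, and -0.64 and 0.16 at 24 h. The probe of highest mean gave 0.15 and -0.32 at these times. All 3 probes were below 0 at 36 h.

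RFC1 read 9.21 and 9.04 in miR-135b cells and 9.12 and 8.99 in control cells at 12 h, 8.93 and 9.02 in miR-135b cells and 9.26 and 9.44 in control cells at 24 h, and 8.94 and 9.07 in miR-135b cells and 9.39 and 9.42 in control cells at 36 h. The groups overlapped at 12 h and were apart at 24 and 36 h, and RFC1 passed with the pairing (-0.24 ± 0.07, adjusted p = 0.12, and 0.0408 with the pairing). Its second probe, detected on 12 arrays, gave -0.13 ± 0.11 in the mean and 0.15 at 36 h, and did not pass with the pairing over every kept probe (adjusted p = 0.487). PCNA had an effect of -0.34 ± 0.16 with an adjusted p of 0.298, or 0.0616 with the pairing. Its control arrays at 12 h stood apart from each other at 10.33 and 11.15, its 2 other probes gave -0.11 and -0.14, and the mean of its probes gave -0.20. RFC5 had an effect of -0.21 ± 0.07 and passed neither way.

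The polymerase genes are POLA1 and POLA2 of polymerase alpha, which starts each strand with the primase subunit PRIM1, POLD1 and POLD3 of polymerase delta, and POLE and POLE2 of polymerase epsilon. Of these 7 genes 1 fell, POLE2, and 2 fell with the pairing, with a median of -0.17 and a range of -0.36 to 0.12. At 12 h POLE2 read 9.45 and 9.41 in miR-135b cells, against 9.66 and 9.48 in control cells. At 24 h POLE2 read 8.98 and 8.75 in miR-135b cells, against 9.22 and 9.16 in control cells. At 36 h POLE2 read 8.75 and 8.67 in miR-135b cells, against 9.43 and 9.18 in control cells. The groups were apart at each time and furthest apart at 36 h. POLE2 had an effect of -0.35 ± 0.08 in the mean (adjusted p = 0.0366, and 0.016 with the pairing), and its call was lost in 10 of 12 fits without 1 array.

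PRIM1 read 10.45 and 10.21 in miR-135b cells and 10.49 and 10.30 in control cells at 12 h, 10.05 and 9.74 in miR-135b cells and 10.41 and 10.26 in control cells at 24 h, and 9.74 and 9.45 in miR-135b cells and 10.32 and 10.03 in control cells at 36 h. It was below control in 6 of 6 pairs of the same time and repeat. Its effect of -0.36 ± 0.10 was as large as that of POLE2, and it passed with the pairing (adjusted p = 0.0835, and 0.0117 with the pairing). Without the pairing PRIM1 also passed without background correction and in the authors' values (adjusted p of 0.0421 and 0.0454). A second PRIM1 probe gave -0.34. The genes of the polymerase catalytic subunits had smaller effects that passed neither way. They were POLD1 at -0.24 ± 0.10, POLE at -0.15 ± 0.14 and POLA1 at -0.08 ± 0.09. POLA2 was at -0.17 ± 0.11. POLD3, at 0.12 ± 0.11, overlapped between the groups at all 3 times.

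FEN1, which trims the flaps of Okazaki fragments, LIG1, which joins them, and RPA1, RPA2 and RPA3, the subunits of the single-strand binding complex RPA, make up the next group. Of these 5 genes 0 fell in the mean and 2 with the pairing, FEN1 and LIG1, and the median was -0.24. FEN1 read 11.99 and 11.74 in miR-135b cells and 11.87 and 11.68 in control cells at 12 h, 11.46 and 11.27 in miR-135b cells and 11.75 and 11.78 in control cells at 24 h, and 11.04 and 11.19 in miR-135b cells and 11.62 and 11.54 in control cells at 36 h. The groups overlapped at 12 h and were apart at both later times. FEN1 had an effect of -0.26 ± 0.08 (adjusted p = 0.119, and 0.049 with the pairing), and its second probe gave -0.26 ± 0.10.

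LIG1 read 8.30 and 8.04 in miR-135b cells and 8.41 and 8.16 in control cells at 12 h, 7.96 and 8.45 in miR-135b cells and 8.30 and 8.62 in control cells at 24 h, and 7.69 and 8.02 in miR-135b cells and 7.97 and 8.47 in control cells at 36 h. The groups overlapped at each time and the repeats lay apart, while the miR-135b array was lower in 6 of 6 pairs. LIG1 passed with the pairing (-0.24 ± 0.13, adjusted p = 0.401, and 0.0458 with the pairing). The RPA genes passed neither way. RPA3 was at -0.24 ± 0.08 and below control on all arrays of each time, and RPA1 and RPA2 were at -0.08 ± 0.08 each.

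DTL encodes the substrate adaptor of a ubiquitin ligase that marks CDT1 for destruction in S phase, UHRF1 brings the maintenance DNA methyltransferase to newly copied DNA, and CHAF1A and CHAF1B are subunits of the chromatin assembly factor CAF-1. Of these 4 genes 1 fell in the mean, DTL, and 3 fell with the pairing, with a median of -0.32. At 12 h DTL read 7.18 and 7.29 in miR-135b cells, against 7.90 and 8.0 in control cells. At 24 h DTL read 6.61 and 6.14 in miR-135b cells, against 7.48 and 7.06 in control cells. At 36 h DTL read 6.85 and 6.56 in miR-135b cells, against 7.46 and 7.07 in control cells. No miR-135b array reached the control arrays of its time, and at 12 h DTL was the member furthest below control. Its effect was -0.73 ± 0.12 in the mean (adjusted p = 0.00943, and 0.00118 with the pairing). The size depends on the background correction, since DTL was at -0.43 without it and at -0.46 in the authors' values, and it passed in both. By time it was -0.72 at 12 h, -0.90 at 24 h and -0.56 at 36 h.

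UHRF1 read 11.28 and 11.11 in miR-135b cells and 11.24 and 11.16 in control cells at 12 h, 10.75 and 10.76 in miR-135b cells and 11.06 and 11.28 in control cells at 24 h, and 10.31 and 10.52 in miR-135b cells and 10.87 and 11.15 in control cells at 36 h. The groups overlapped at 12 h and were apart at 24 and 36 h, and UHRF1 had an effect of -0.34 ± 0.09 (adjusted p = 0.0562, and 0.0166 with the pairing). Without the pairing UHRF1 also passed without background correction, with an offset of 50, in the authors' values and with probes detected on all 12 arrays (adjusted p of 0.0227, 0.0369, 0.0263 and 0.0381). A second UHRF1 probe, detected on 4 arrays, gave -0.27 ± 0.20 in the mean, with 0.21 at 24 h and -1.08 at 36 h. CHAF1B read 9.13 and 8.96 in miR-135b cells and 9.17 and 9.07 in control cells at 12 h, 8.71 and 8.72 in miR-135b cells and 9.09 and 8.92 in control cells at 24 h, and 8.10 and 8.46 in miR-135b cells and 8.84 and 8.80 in control cells at 36 h. It was below control in 6 of 6 pairs and had an effect of -0.30 ± 0.09 (adjusted p = 0.0814, and 0.0426 with the pairing). Without the pairing CHAF1B also passed without repeat 2 of miR-135b at 36 h (adjusted p = 0.0393). The other CAF-1 subunit gene, CHAF1A, overlapped between the groups at each time and had an effect of -0.05 ± 0.08.

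CCNE1 encodes cyclin E, which activates CDK2 at the entry to S phase, and CDC25A is the phosphatase that removes inhibitory phosphate from CDK2. Of these 2 measured genes 1 fell in the mean, CCNE1, and 2 fell with the pairing. At 12 h CCNE1 read 9.04 and 8.95 in miR-135b cells, against 9.35 and 9.20 in control cells. At 24 h CCNE1 read 8.76 and 8.77 in miR-135b cells, against 9.30 and 9.22 in control cells. At 36 h CCNE1 read 8.64 and 8.92 in miR-135b cells, against 9.22 and 9.12 in control cells. The miR-135b arrays were below the control arrays at each time. At 12 h the effect was -0.28 ± 0.13 and did not pass (unadjusted p in limma of 0.0627). Both miR-135b arrays lay below both control arrays at 12 h in 17.6% of all genes. The effect of CCNE1 was -0.39 ± 0.08 in the mean (adjusted p = 0.0204), and a second probe, detected on 3 arrays, gave -0.13 ± 0.22. With the mean of kept probes CCNE1 was at -0.26 and did not pass (adjusted p = 0.28). Its call was lost without either array of miR-135b at 24 h, without repeat 2 of miR-135b at 12 h and without repeat 1 of the control at any of the 3 times.

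CDC25A read 10.25 and 9.78 in miR-135b cells and 10.08 and 9.99 in control cells at 12 h, 9.37 and 9.39 in miR-135b cells and 9.87 and 9.96 in control cells at 24 h, and 9.16 and 9.33 in miR-135b cells and 9.60 and 9.81 in control cells at 36 h. The groups overlapped at 12 h and were apart at both later times. CDC25A had an effect of -0.34 ± 0.10 (adjusted p = 0.0806, and 0.0254 with the pairing), and its second probe gave -0.31. Without the pairing CDC25A also passed without background correction, in the authors' values and without repeat 1 of miR-135b at 12 h (adjusted p of 0.0444, 0.0475 and 0.0319).

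**Figure D2:**
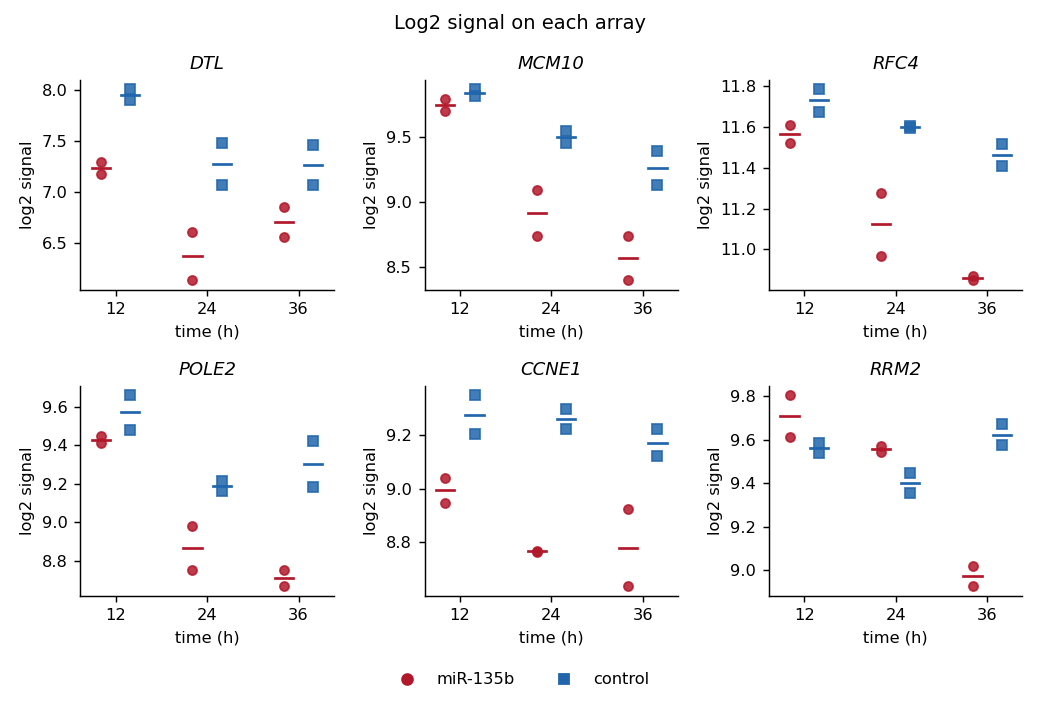
Log2 signal on each of the 12 arrays at 12, 24 and 36 h for the 5 genes that fell in the mean of 3 times and for RRM2, with miR-135b arrays as red circles, control arrays as blue squares and lines at the group means (n = 2 each). DTL, MCM10, RFC4, POLE2 and CCNE1 are below control without overlap at all 3 times. They were picked by their fall on these same arrays, so this is not separate evidence. RRM2 is above control at 12 and 24 h and below it at 36 h.

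The nucleotide supply genes are RRM1 and RRM2, the subunits of ribonucleotide reductase, TYMS, which makes thymidylate, and TK1, which salvages thymidine. Of these 4 genes 0 fell in the mean of 3 times, 2 fell with the pairing, and the median was -0.20. In value, RRM2 was above control at the earlier times, where it did not pass, and below it at 36 h. At 12 h RRM2 read 9.61 and 9.80 in miR-135b cells, against 9.59 and 9.54 in control cells. At 24 h RRM2 read 9.57 and 9.54 in miR-135b cells, against 9.36 and 9.45 in control cells. At 36 h RRM2 read 9.02 and 8.93 in miR-135b cells, against 9.67 and 9.58 in control cells. Both miR-135b arrays were thus above both control arrays at 12 and 24 h and below them at 36 h. The log2 fold changes were 0.15 ± 0.12, 0.15 ± 0.12 and -0.65 ± 0.12 (adjusted p = 0.0297 at 36 h). The rises at 12 and 24 h were near their SE (unadjusted p in limma of 0.255 and 0.232). The mean of RRM2 of -0.12 ± 0.07 did not pass (adjusted p = 0.449).

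RRM1 read 12.28 and 12.25 in miR-135b cells and 12.36 and 12.28 in control cells at 12 h, 12.37 and 11.95 in miR-135b cells and 12.41 and 12.28 in control cells at 24 h, and 11.80 and 11.66 in miR-135b cells and 12.38 and 12.14 in control cells at 36 h. It was below control in 6 of 6 pairs, and the gap was widest at 36 h. TK1 read 11.71 and 11.40 in miR-135b cells and 11.78 and 11.40 in control cells at 12 h, 11.66 and 11.52 in miR-135b cells and 11.70 and 11.78 in control cells at 24 h, and 10.88 and 10.95 in miR-135b cells and 11.44 and 11.51 in control cells at 36 h. The groups of TK1 were nearly equal at 12 h and clearly apart at 36 h. In the mean, RRM1 was at -0.26 ± 0.09 (adjusted p = 0.168, and 0.0462 with the pairing) and TK1 at -0.25 ± 0.09 (adjusted p = 0.181, and 0.0408 with the pairing). TYMS had an effect of -0.15 ± 0.11 in the mean and passed neither way.

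The last group holds UNG, the glycosylase that removes uracil from DNA, MSH6, a mismatch recognition subunit, and SLBP, which binds the stem-loop of histone messenger RNA. None of these 3 genes passed either way, with effects of -0.18 ± 0.11 for UNG, -0.18 ± 0.08 for MSH6 and -0.14 ± 0.10 for SLBP. Of the probes that do not stand for their gene, 18 were kept over all members, 17 of them had an effect below 0 and 2 passed in the fit over every kept probe, the RFC3 and RFC4 probes given above. Some other probes were close to 0, such as those of SLBP at -0.01 ± 0.14, UNG at -0.04 ± 0.23 and RPA1 at 0.00 ± 0.14.

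The time of the effect was then examined. At 12 h, 0 of the 36 genes passed in limma, against 0.0267% of all genes that fell, and 0 passed with the pairing, against 0.0356%. At an unadjusted p below 0.05, 1 gene, DTL, was lower, against 2.75% of all genes. The median effect was -0.01, beside -0.01 over all genes, and 20 of the 36 genes were below 0, against 51.7% of all genes. At 24 h again 0 passed, against 0.489% of all genes that fell, while 13 had an unadjusted p below 0.05 with lower levels, against 5.86%. With the pairing DTL passed at 24 h (-0.90 ± 0.21, adjusted p = 0.11, and 0.013 with the pairing), where 1.54% of all genes fell. The median at 24 h was -0.28, beside 0.01 over all genes, and 34 of 36 genes were below 0, against 48.7% of all genes, with POLD3 and RRM2 as the exceptions.

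At 36 h the median reached -0.43, beside 0.01 over all genes, and 35 of 36 genes were below 0, against 48.1% of all genes, with POLD3 at 0.06 as the exception. RRM2 alone passed, against 0.89% of all genes that fell, and 22 of the 36 were lower at an unadjusted p below 0.05, against 7.25%. That call was lost without any 1 of the 8 arrays of 24 and 36 h, with median scaling of the arrays and in the fit over every kept probe. With the pairing, 12 of the 36 fell, against 3.14% of all genes. In the paired fit over every kept probe 4 of the 36 fell at 36 h, counting a gene if any of its probes passed. Of all kept probes 1.32% fell, a share that counts probes and not genes. The 4 genes were CDT1, PRIM1, RRM2 and UHRF1. UHRF1 passed there only by its second probe, detected on 4 arrays (adjusted p = 0.027). The UHRF1 probe of highest mean did not pass (adjusted p = 0.0515). The 12 were RRM2 and CDT1 with adjusted p of 0.0222 and 0.0239, and PRIM1, DTL, UHRF1, POLE2, TK1, CDC45, MCM10, RFC4, RFC3 and RRM1. The largest of these effects was that of CDT1 at -0.75 ± 0.19, followed by MCM10 at -0.69 ± 0.17. Both miR-135b arrays lay below both control arrays for 7 of 36 genes at 12 h, 25 at 24 h and 29 at 36 h, against 17.6%, 20.7% and 19.1% of all genes. In 14 of 36 genes the miR-135b array was lower in 6 of 6 pairs of the same time and repeat, against 8.76% of all genes. Among the 14 were CDC6, POLE, RPA3 and SLBP, which passed neither way in the mean of 3 times.

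**Figure D3:**
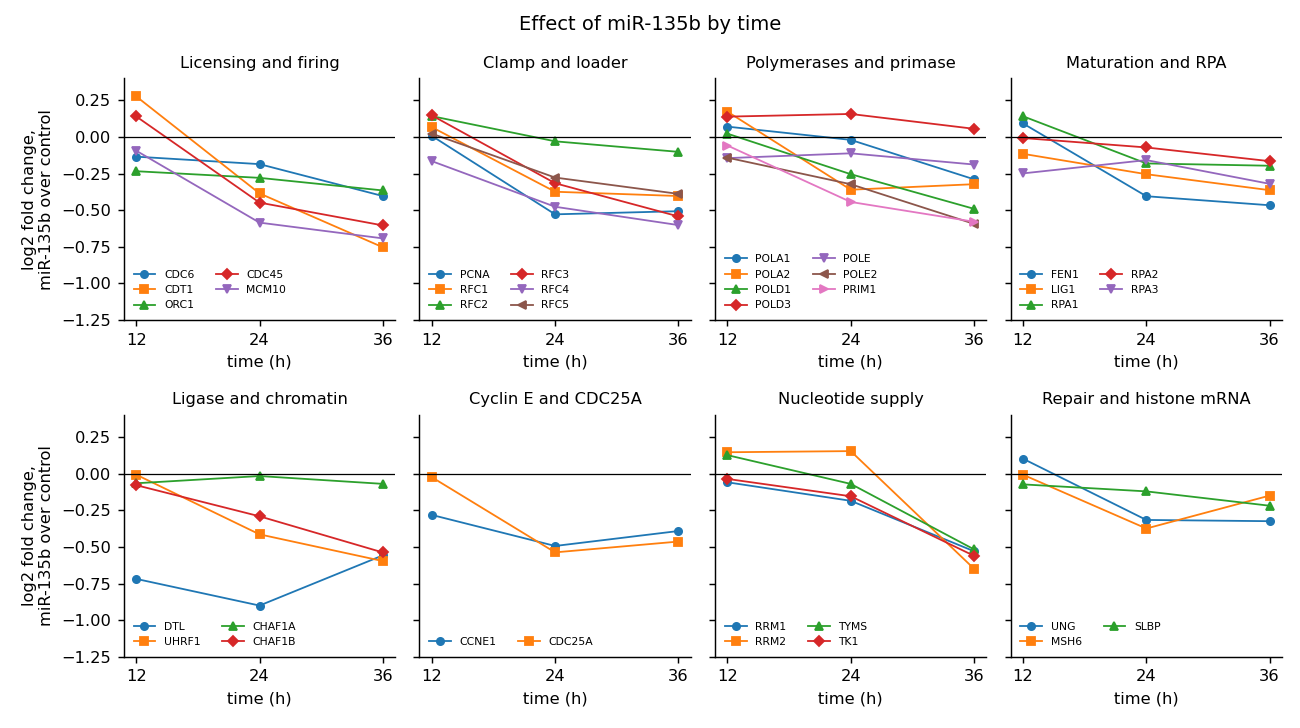
Log2 fold change of miR-135b over control at 12, 24 and 36 h for each measured gene, in 8 panels by role and without error bars (n = 2 arrays per group). Most lines start near 0 at 12 h and lie below it at 24 and 36 h. DTL is at -0.72 at 12 h, where it did not pass, and POLD3 stays above 0.

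The growth of the effect with time was tested in itself, by subtracting the 12 h effect of a gene from its 36 h effect. This difference was below 0 in 35 of the 36 genes, where 48.1% of all genes were, and DTL was the exception at 0.16 ± 0.30. Its median was -0.44, beside 0.01 over all genes. In limma 0 of the 36 genes and 0 of the 11238 passed, with and without the pairing. The unadjusted p of 13 of the 36 was below 0.05 with a value below 0, against 2.67% of all genes. RRM2 at -0.80 ± 0.17 (adjusted p = 0.752), CDC45 at -0.74 ± 0.19 and CDT1 at -1.03 ± 0.27 (adjusted p = 0.803 each) had the lowest p among them. The F test of any difference between times also called 0 genes, and 5 of the 36 had an unadjusted p below 0.05, against 4.02% of all genes. That the effect at 36 h exceeds the effect at 12 h was therefore not established for any single gene with 2 arrays per group.

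The same arrays were read within each treatment. In miR-135b cells 8 of the 36 genes fell at 36 h relative to 12 h, against 0.587% of all genes, and 27 were lower at an unadjusted p below 0.05, against 8.82%. All 36 values were below 0, against 49.7% of all genes, with a median of -0.55. The 8 were MCM10, UHRF1, CHAF1B, FEN1, RRM2, CDC45, POLE2 and RFC4. MCM10 had the largest change at -1.18 ± 0.17 (adjusted p = 0.0358), a level 2.26 times lower at 36 h, and the others lay between -0.78 for UHRF1 and -0.71 for RFC4. In control cells 0 of the 36 genes passed in limma over the same interval, against 0.0178% of all genes that fell, and 6 were lower at an unadjusted p below 0.05, against 7.2%. Of the control values 29 were below 0, against 51.9% of all genes, with a median of -0.17. The change of CDC45 was -0.73 ± 0.13 in miR-135b cells and 0.01 ± 0.13 in control cells. That of RRM2 was -0.73 ± 0.12 in miR-135b cells and 0.06 ± 0.12 in control cells. DTL and CHAF1A changed alike in value in both, with DTL at -0.53 ± 0.21 in miR-135b cells and -0.69 ± 0.21 in control cells, and CHAF1A at -0.52 ± 0.14 in miR-135b cells and -0.51 ± 0.14 in control cells.

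The count of 8 dropped to 0 or 1 in each of 12 fits without 1 array, and the 8 lay near the threshold, with adjusted p from 0.0358 to 0.0453. It was 1 without repeat 1 or repeat 2 of miR-135b at 24 h and 0 without any other array. These contrasts share the miR-135b arrays of 36 h with the comparison against control at 36 h, so they are not separate evidence of a low level there.

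**Figure D4:**
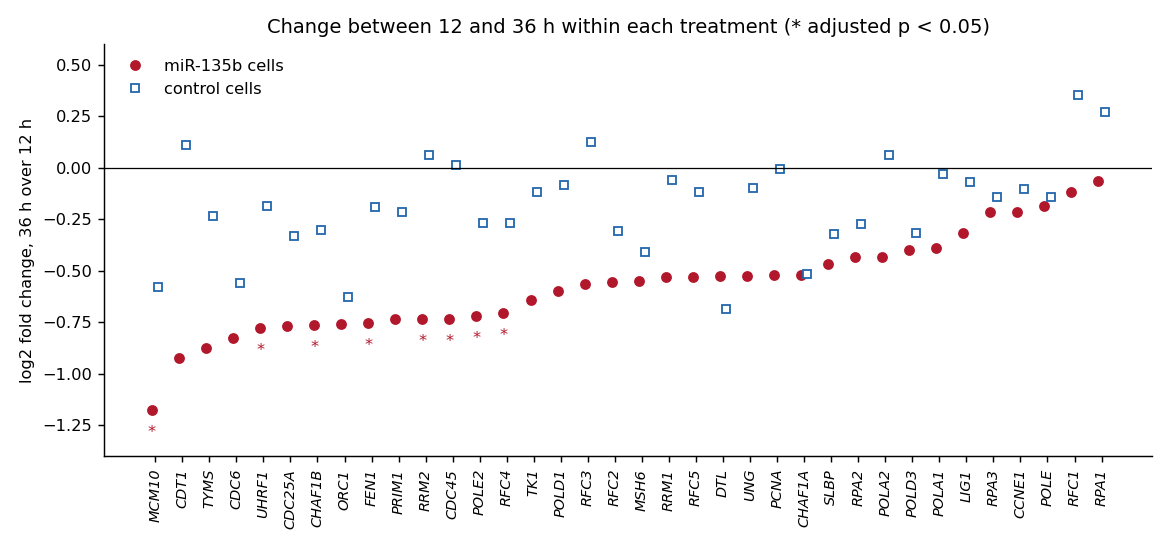
Log2 fold change of 36 h over 12 h for each measured gene within miR-135b cells (filled red circles) and within control cells (open blue squares), ordered by the value in miR-135b cells, with n = 2 arrays per group. All 36 values in miR-135b cells lie below 0 and 8 passed, while the control values run from -0.69 to 0.35.

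Related genes were listed for comparison. Beside their counts, 2.81% of all genes fell in the mean of 3 times, or 6.52% with the pairing. The share that rose was 1.97%, or 5.09% with the pairing. Of 42 other replication genes tested, 5 fell in the mean of 3 times and 0 rose, with the pairing 11 fell and 1 rose, and the median was -0.12. The 5 were CDC7, the kinase subunit that fires origins, at -0.42, the polymerase alpha partner WDHD1 at -0.36, the exonuclease gene EXO1 at -0.56, CDK2 at -0.38 and GMNN, whose product geminin inhibits CDT1, at -0.72. Of 9 tested MCM and GINS genes 2 fell, MCM3 and GINS2, 8 fell with the pairing, and the median was -0.36, lower in value than the -0.24 of the S-phase genes described here. Of 16 genes of the E2F family list 3 fell, E2F2 at -0.48, RBL1 at -0.64 and GMNN, which stands on both lists, and 1 rose, E2F5 at 0.64 ± 0.10 (adjusted p = 0.00539). With the pairing 5 of the E2F family list fell and 2 rose, and the median was -0.18. Of 35 genes of G2 and mitosis 1 fell, KIF23 at -0.69, 6 fell with the pairing, and the median was -0.10. The median effects at 12 h and at 36 h were 0.0 and -0.22 in the other replication genes. They were -0.04 and -0.70 in the MCM and GINS genes and -0.005 and -0.36 in the E2F family list. In the genes of G2 and mitosis they were 0.03 and -0.33, beside -0.01 and -0.43 in the S-phase genes. A lower median at 36 h than at 12 h was thus not particular to the S-phase genes. The difference between these lists and the S-phase genes was not tested.

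Within the S-phase genes, the effects were set beside the promoter letters. The median effect was -0.24 in the 27 genes whose window held a match, with a range of -0.73 to 0.00, and -0.28 in the 6 genes whose window held none, with a range of -0.46 to -0.14.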

How the data were processed

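LNCaP arrays were grouped by precursor and time, 2 repeats a group. The deposited table holds, per the file headers, the linear signal intensity of each probe with its detection p-value. The submitters' processing notes name GenomeStudio 2010.2 and lumi 1.8.3. The authors' own log2 values, in another deposited table, have the same median of 6.736 on each array. How they were normalized was not tested further. Any background correction before that is not given in the sources available to this work.

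Intensities were background corrected with limma 3.58.1 (R 4.3.3; normexp, negative controls inferred from detection p, offset 16), quantile normalized and put on the log2 scale. Probes with detection p under 0.01 on at least 2 of 12 arrays were kept (19161 of 47323). The annotation gives 30113 probes 1 gene name, 8 several and 17202 none; probes with 1 name were used, and the probe of highest mean stands for each of 11238 genes. An offset makes the fold change of a dim gene smaller.

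A model of 6 group means (lmFit, eBayes, 6 residual degrees of freedom) gave two-sided tests, Benjamini-Hochberg adjusted over all genes tested, with 0.05 as the threshold. The repeat numbers paired the arrays within a time, since same-numbered arrays deviated together (r = 0.465, 0.456 and 0.584 at 12, 24 and 36 h, above the limit of 0.1), so a fit with a replicate block within time (3 residual degrees of freedom) is given where it changes a call. Nothing says from which cultures the repeats came, so p-values measure the spread between these samples.

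The members and lists were chosen with earlier results of these data known. Every measured member is named, and a member past the threshold in any contrast of either fit is given on each array. Other genes are named if they passed in the mean of 3 times. The script was tested on simulated data. Alternatives were other background correction, offset, scaling, the authors' values, probe filters, probe summaries, the pairing and leaving out single arrays. The pairing over every kept probe was added after seeing the data.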

Additional observations from a re-analysis of the deposited data

How the results depend on the processing

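Counts of called genes among the 36 moved with the processing. In the mean of 3 times, 5 in the reported setting, it was 9 without background correction and 9 with the authors' values, 3 with median scaling and 1 to 4 without single arrays. At 36 h, where 1 was called, it was 7, 7 and 0 in the same 3 settings, 3 with an offset of 50, 4 with probes detected on all 12 arrays, 3 with the mean of kept probes, 0 over every kept probe and 0 to 1 without single arrays. For miR-135b at 36 h against 12 h, where 8 were called, it was 15, 14 and 1 in those settings, 2 with no detection filter, 0 over every kept probe and 0 to 1 without single arrays. With the replicate block the pairing gave 18 genes in the mean of 3 times, 1 at 24 h and 12 at 36 h; it changed no count at 12 h or between times. Chosen after seeing the data, the block over every kept probe gave 9 in the mean of 3 times, 1 at 24 h and 4 at 36 h. That block has no contrast between times within a treatment. Counts over all 11238 genes moved too. In the mean of 3 times 316 genes fell in the reported setting, and 396 without background correction. It was 380 with the authors' values and 174 with median scaling. In the same order, 100, 169, 168 and 42 fell at 36 h. For miR-135b at 36 h against 12 h, 66, 171, 154 and 10 fell. The cause of these moves was not tested, except that the fits without an array rest on fewer samples and take the lone array to vary like the other groups. The median effect at 12 h ranged from -0.111 to 0.0536 without single arrays, the sign turning without repeat 2 of miR-135b at 12 h (0.0536) and without repeat 1 of the control at 12 h (0.038), while the medians in the mean, at 24 h and at 36 h stayed below 0 in these fits (-0.28 to -0.21, -0.38 to -0.19 and -0.47 to -0.39). Of the values of single genes in the mean of 3 times, 662 kept their side of the threshold, 27 newly passed and 30 no longer passed. CCNE1 passed in 6 of 8 other settings and POLE2 in 7 of 8. These values of single genes leave out the fit over every kept probe. There the CCNE1 probe of highest mean passed and the POLE2 probe did not (adjusted p in limma of 0.0356 and 0.0592). The 2 arrays per group limit all of these counts.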
